A study of Homo sapiens with 24 samples.

Results

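The regions described here are the peaks of 3 subunits of the SWI/SNF chromatin remodelling complex on human chromosome 20, chosen by the chromosome given for each peak. There were 1997 such peaks of 51504 for BRG1, 1106 of 22157 for BRM and 432 of 6489 for SNF5, together 3535 of 80150. The chromosome was singled out because its peaks were known to be dense and often shared, so its own counts and shares are given as a description, without a test. The cells were RWPE1, an immortal cell line from the epithelium of a benign human prostate. They had been infected with a lentivirus that expresses SCHLAP1, a long noncoding RNA known from prostate tumours, and selected in blasticidin. BRG1, BRM and SNF5 were each precipitated from MNase-cut, formaldehyde-fixed chromatin of these SCHLAP1 cells, with 2 replicates per subunit among the 24 samples of 12 groups. All 3 subunit groups carry SCHLAP1, so no comparison with LACZ control cells can be made for them.

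BRG1 (SMARCA4) and BRM (SMARCA2) are the alternative ATPase motors of SWI/SNF, which uses ATP to slide or evict nucleosomes, and SNF5 (SMARCB1) is a core subunit of the canonical BAF and PBAF forms. In epithelial cells the complex lies at active promoters and at enhancers, where it keeps DNA open to transcription factors. Chromosome 20 has a short arm (20p) and a long arm (20q), and 20q carries many genes studied in epithelial cancers, among them AURKA, ZNF217 and NCOA3. It also carries clusters of genes for beta-defensins, BPI fold proteins and semenogelins, which are made by few tissues.

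The promoters below show the kinds of site that the peaks set apart. Each is the 250 bases before a RefSeq transcription start (GRCh38.p14), 5′ to 3′ on the gene's strand. Capitals mark matches to a GC box (GGGGCGGGG), a CCAAT box (CCAAT) or a TATA box (TATAAA), each sought on both strands, and matches may overlap. ID1 (chr20:31605039-31605288, plus strand) and SDC4 (chr20:45348425-45348674, minus strand) lay under peaks of all 3 subunits. LAMA5 (chr20:62367313-62367562, minus strand) lay under BRG1 and BRM. E2F1 (chr20:33686386-33686635, minus strand) and BHLHE23 (chr20:63006965-63007214, minus strand) lay under BRM alone, and SEMG1 (chr20:45206783-45207032, plus strand) lay under no peak. BRG1 peaks outside these bases also name E2F1 (1 peak) and BHLHE23 (2 peaks).
ID1: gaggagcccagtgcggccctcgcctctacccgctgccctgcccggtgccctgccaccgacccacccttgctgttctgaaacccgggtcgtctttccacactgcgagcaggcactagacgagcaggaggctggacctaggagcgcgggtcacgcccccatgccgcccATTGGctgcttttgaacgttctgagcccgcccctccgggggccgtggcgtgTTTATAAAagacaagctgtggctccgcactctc
SDC4: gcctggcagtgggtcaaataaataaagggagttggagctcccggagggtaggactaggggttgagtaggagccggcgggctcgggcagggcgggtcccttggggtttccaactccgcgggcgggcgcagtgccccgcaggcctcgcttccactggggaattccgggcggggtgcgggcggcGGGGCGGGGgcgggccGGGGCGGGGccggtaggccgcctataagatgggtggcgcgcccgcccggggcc
LAMA5: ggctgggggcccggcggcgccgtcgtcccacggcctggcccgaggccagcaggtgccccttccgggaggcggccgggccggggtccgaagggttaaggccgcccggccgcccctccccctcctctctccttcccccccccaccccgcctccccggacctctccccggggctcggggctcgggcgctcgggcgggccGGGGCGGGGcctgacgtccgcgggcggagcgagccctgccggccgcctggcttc
E2F1: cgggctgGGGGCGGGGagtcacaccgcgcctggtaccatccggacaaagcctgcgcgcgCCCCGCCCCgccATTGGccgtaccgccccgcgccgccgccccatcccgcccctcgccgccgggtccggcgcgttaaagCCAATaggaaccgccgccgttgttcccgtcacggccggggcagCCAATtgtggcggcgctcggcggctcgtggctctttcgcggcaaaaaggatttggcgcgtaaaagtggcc
BHLHE23: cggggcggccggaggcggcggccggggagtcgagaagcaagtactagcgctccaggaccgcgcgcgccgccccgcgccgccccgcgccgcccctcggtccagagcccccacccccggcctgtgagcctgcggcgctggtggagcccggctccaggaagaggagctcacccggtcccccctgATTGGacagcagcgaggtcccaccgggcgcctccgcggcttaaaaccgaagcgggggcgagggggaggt
SEMG1: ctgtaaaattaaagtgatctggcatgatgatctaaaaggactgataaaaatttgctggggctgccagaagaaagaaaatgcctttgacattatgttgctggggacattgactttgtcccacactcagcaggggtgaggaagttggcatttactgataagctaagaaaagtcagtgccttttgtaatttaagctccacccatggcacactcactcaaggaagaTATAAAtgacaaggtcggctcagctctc
The 5 promoters with a peak held from 19 CpG dinucleotides (ID1) to 38 (E2F1) in these bases, and SEMG1 held 1.

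Chromosome 20 carried more SWI/SNF peaks for its size than most autosomes. In the full lists, which differ in size, the excess grew from BRG1 to BRM to SNF5. It held 3.91% of the autosomal BRG1 peaks (95% interval 3.74 to 4.08), 5.01% of the BRM peaks (4.73 to 5.31) and 6.66% of the SNF5 peaks (6.06 to 7.29). It makes up 2.24% of the autosomes' length between first and last gene, and holds 537 of the 19126 autosomal protein-coding genes (2.81%). These and all later intervals are exact (Clopper-Pearson) binomial intervals that treat peaks as independent, which neighbouring peaks are not, and they cover counting error only. The lists give no reads, so the depth behind each peak is unknown, and there is 1 list per subunit, so no spread between replicates can be given.

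BRG1 had 31.1 peaks per Mb on chromosome 20, the third highest of 22 autosomes, against a median of 18.1 on the others and 38.9 on chromosome 19. BRM had 17.2 per Mb, also the third, against a median of 7.09. SNF5 had 6.72 per Mb, next to chromosome 19 (6.81) and against a median of 2.05. Gene-rich chromosomes such as 17 and 19 lead these orders, and per protein-coding gene chromosome 20 stood higher. It had 3.72 BRG1 peaks per gene (chromosome 10 was higher, with 4.05), 2.06 BRM peaks (the highest, next to chromosome 9 with 1.82) and 0.804 SNF5 peaks (the highest, next to chromosome 10 with 0.595). Relative to the pooled other autosomes the number per Mb was 1.78 times as high for BRG1 (1.70 to 1.86), 2.31 times for BRM (2.17 to 2.45) and 3.12 times for SNF5 (2.82 to 3.44). With the widest 6488 peaks of each list it was 2.29 times for BRG1 (2.04 to 2.56) and 2.49 times for BRM (2.23 to 2.78). These 2 intervals overlap, and the step from BRG1 to BRM was smaller than in the full lists. Equal numbers also select peaks by width, so the part of list size alone was not tested. The lists hold no measure of input reads or of DNA copy number, and peaks per Mb are adjusted for neither: their part in the result was not tested.

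A large part of the chromosome's peaks lay away from promoters. The authors call a peak promoter when it lies within about 1 kb of a transcription start site (TSS). On chromosome 20, 30.7% of BRG1 peaks were promoter peaks (28.7 to 32.8, against 37.3% on the other autosomes), 47.1% of BRM peaks (44.1 to 50.1, against 63.5%) and 69.4% of SNF5 peaks (64.9 to 73.8, against 82.1%). For BRM and SNF5 these shares were the lowest of the 22 autosomes, and for BRG1 only 3 autosomes were lower. Non-promoter peaks were denser per Mb than on any other autosome, with 21.5 for BRG1, 9.11 for BRM and 2.05 for SNF5, where the next highest had 17.5, 7.89 and 1.25. Promoter peaks per gene were also high, with 1.14, 0.970 and 0.559, against medians of 0.991, 0.751 and 0.267 on the other autosomes.

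The 2 arms differed. 20q held 357 of the 537 protein-coding genes (66.5%) but 1473 BRG1 peaks (73.8% of the chromosome's), 920 BRM peaks (83.2%) and 372 SNF5 peaks (86.1%). 20p held 524, 186 and 60. Per protein-coding gene, 20p had 2.91 BRG1, 1.03 BRM and 0.333 SNF5 peaks, near the medians of 2.74, 1.14 and 0.317 over the 38 arms of other autosomes that hold at least 20 genes. 20q had 4.13 BRG1, 2.58 BRM and 1.04 SNF5 peaks per gene. Of the 40 arms 20q was the highest for BRM and SNF5, next to 9q with 2.17 and 0.703, and the second for BRG1, after 10p with 4.73. The density above the other autosomes came from 20q, and 20p did not share it.

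**Figure D1:**
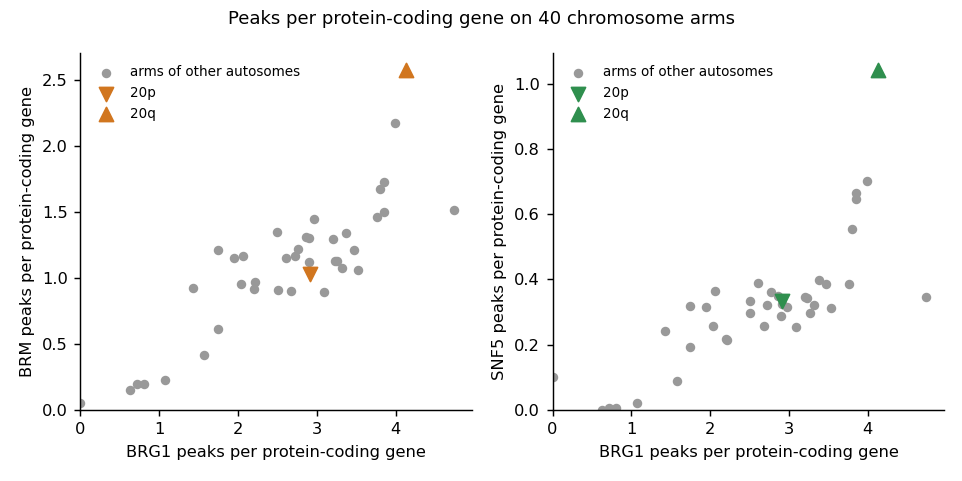
Peaks per protein-coding gene on 40 chromosome arms, with BRG1 on the horizontal axis and BRM (left) or SNF5 (right) on the vertical axis; each point is 1 arm. 20q stands at 2.58 BRM and 1.04 SNF5 peaks per gene, above every other arm, while 20p (1.03 and 0.333) lies among the rest.

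Sharing between subunits followed the arms too. A BRG1 peak is said to meet BRM or SNF5 when they share at least 1 bp. On 20q, 45.3% of BRG1 peaks met BRM (42.7 to 47.9) and 15% met SNF5 (13.2 to 16.9). On 20p the shares were 30.0% (26.1 to 34.1) and 9.35% (7.0 to 12.2). Wide peaks meet other peaks more often, so the share was also computed from the other autosomes at the same peak width (10 bins) and class (promoter or not). This expected share was 36.9% for BRM and 10.004% for SNF5 on 20q, both below the observed shares. On 20p it was 35.0% for BRM, above the observed share, and 9.41% for SNF5, close to the observed share. These are descriptions of a chromosome chosen for its sharing, and no test was made.

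For the whole chromosome, 41.3% of BRG1 peaks met BRM (expected 36.4%) and 13.5% met SNF5 (expected 9.85%). The excess of 3.67 percentage points for SNF5 was the highest of the 22 autosomes. Both BRM and SNF5 met 259 BRG1 peaks, BRM only met 565, SNF5 only met 11, and 1162 (58.2%) met neither. For SNF5 the gap to the other autosomes was largest among wide peaks. Chromosome 20 was above them in 6 of 10 width bins for promoter peaks and in 7 of 10 for non-promoter peaks. Of BRG1 promoter peaks in the widest bin (1651 to 13194 bp), 70.9% met SNF5 on chromosome 20 (107 of 151) and 54.6% on the other autosomes. Of the widest non-promoter peaks it was 33.3% (37 of 111) against 20.4%. For BRM, promoter peaks on chromosome 20 were above the other autosomes in 5 of 10 width bins and non-promoter peaks in 10 of 10.

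**Figure D2:**
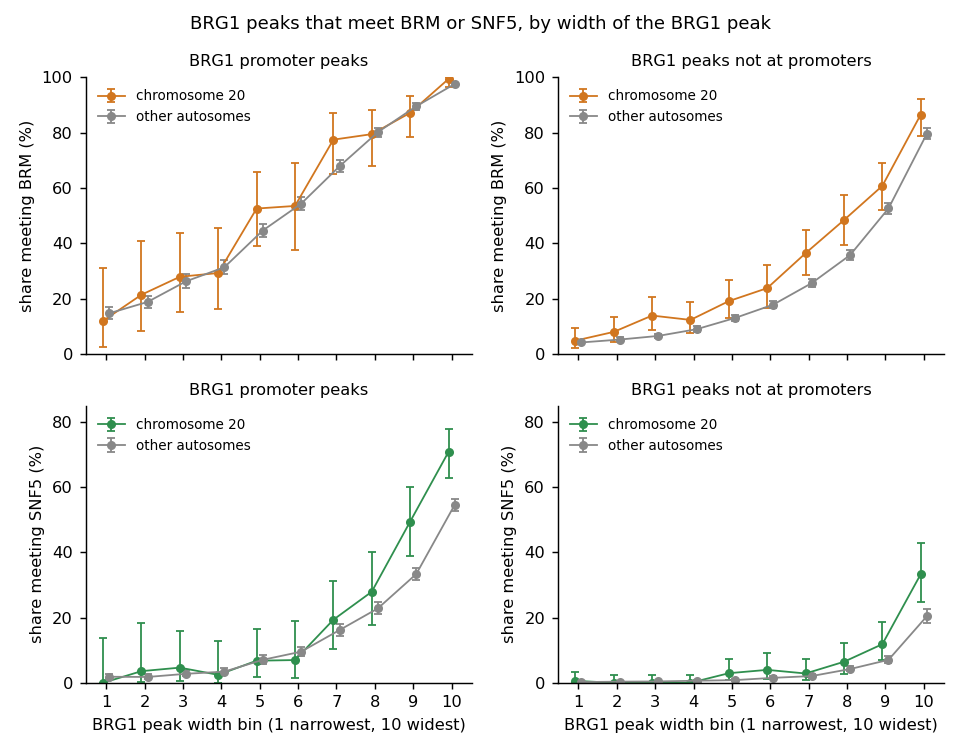
Share of BRG1 peaks that meet BRM (top) or SNF5 (bottom) in 10 bins of BRG1 peak width, for promoter peaks (left) and other peaks (right); bars are exact 95% binomial intervals. Chromosome 20 lies above the other autosomes for SNF5 in the widest bins (70.9% against 54.6% at promoters) and for BRM in 10 of 10 bins away from promoters.

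Along the chromosome, peaks were counted in 13 windows of 5 Mb, numbered from the end of the short arm. The 6 windows that begin on 20p held 183, 64, 98, 77, 67 and 35 BRG1 peaks, and the 7 windows of 20q held 184, 215, 150, 284, 240, 161 and 239. BRM had 78, 21, 19, 25, 27 and 16 peaks in the windows of the short arm, and 113, 114, 66, 133, 128, 88 and 278 on 20q. SNF5 had 26, 3, 7, 11, 9 and 4 on the short arm and 61, 59, 24, 58, 43, 34 and 93 on 20q. Outside the first window, which holds 81 genes, no window of 20p reached the lowest count of a 20q window for any subunit. Long stretches had no peak. No BRG1 peak lay between 26010283 and 30284163 (4.27 Mb), around the centromere, and the longest stretch without SNF5 ran from 10674625 to 16573041 (5.90 Mb), beginning just past JAG1, the gene of a ligand of Notch receptors.

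**Figure D3:**
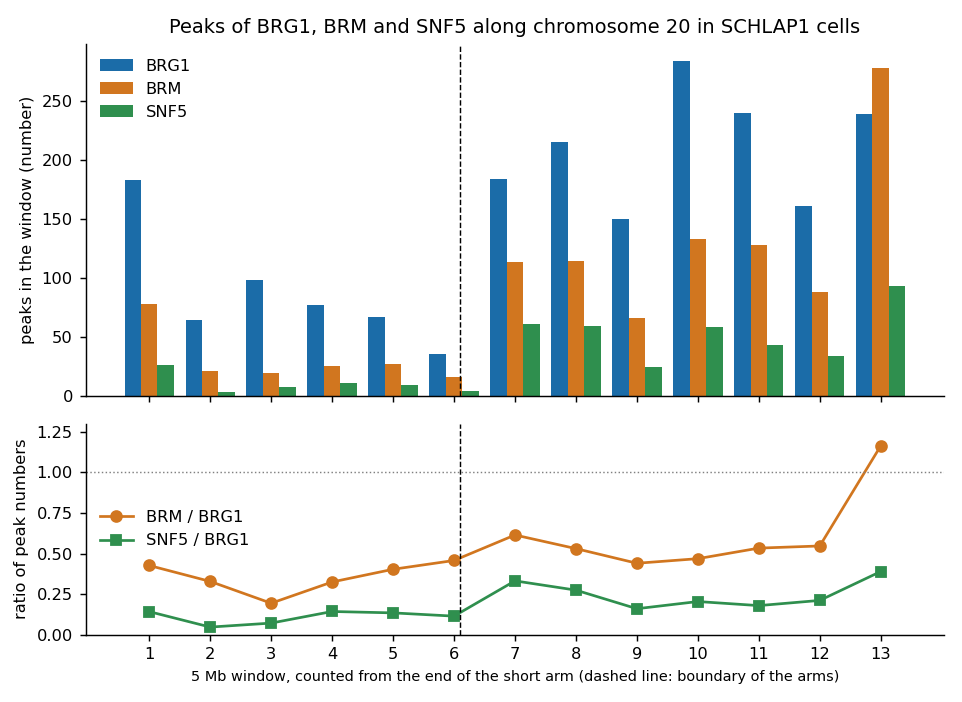
Number of BRG1, BRM and SNF5 peaks (top) and ratios of peak numbers (bottom) in 13 windows of 5 Mb along chromosome 20, with the boundary of the arms dashed. SNF5 relative to BRG1 is high in windows 7 and 8, and only in window 13 do BRM peaks (278) outnumber BRG1 peaks (239).

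Windows 7 and 8 (30 to 40 Mb), the first of 20q with peaks, were rich in SNF5. They had 0.33 and 0.27 SNF5 peaks for each BRG1 peak, against a median of 0.0991 over windows of the other autosomes. SNF5 met 21.2% (15.5 to 27.8) and 19.1% (14 to 25) of their BRG1 peaks. Window 7 holds the ID1 region, which had the lowest sum of width ranks of all sites shared by the 3 subunits on the chromosome. ID1 encodes an inhibitor of basic helix-loop-helix factors and responds to BMP signals. A BRG1 peak of 5387 bp (chr20:31603825-31609211) covers the whole of ID1 and of the microRNA gene MIR3193, for which the authors name it, and met a single BRM peak, 6231 bp wide. It met 6 SNF5 peaks, one of them 1474 bp wide, the widest of the chromosome. The mature microRNA of that gene is shown with its seed (bases 2 to 8) in capitals.
hsa-miR-3193: uCCUGCGUaggaucugaggagu
In the same window RALY, which encodes an RNA-binding protein of the hnRNP family, had a BRG1 promoter peak of 4189 bp (chr20:33991757-33995945) with 3 BRM and 2 SNF5 peaks. In window 8 the widest BRG1 peak, 6234 bp, covered BLCAP and NNAT and met 5 BRM and 3 SNF5 peaks.

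Very wide BRG1 peaks were frequent on 20q. Of the chromosome's BRG1 peaks 47 (2.35%) were 3 kb or wider, the highest share of the 22 autosomes, next to 2.28% on chromosome 5. Of these, 44 lay on 20q and 28 at promoters. BRM met all 47 and SNF5 met 41, and the 47 met 113 of the 432 SNF5 peaks of the chromosome (26.2%). The same shares were not computed for the other autosomes. In their widest bin (1651 bp or more) BRM met 97.5% of BRG1 promoter peaks and 79.6% of other BRG1 peaks. For SNF5 the shares in that bin were 54.6% and 20.4%. The widest BRG1 peak of chromosome 20, 13194 bp (chr20:45336230-45349423), lies over SDC4. This is the gene of syndecan 4, a heparan sulphate proteoglycan of focal adhesions. The peak met 7 BRM and 8 SNF5 peaks. The authors name it for AL021578.1, and no BRG1 peak is named for SDC4 itself, although its promoter, printed above, lies inside.

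The other widest shared sites were spread over windows 10 to 13. ZMYND8, a reader of acetylated histones, had 2 of them: a BRG1 peak of 10943 bp (chr20:47350708-47361650) that met 6 BRM and 6 SNF5 peaks, and one of 3902 bp (chr20:47316870-47320771) that met 1 and 4. ZFAS1, a noncoding host gene of snoRNAs, had one of 8366 bp (chr20:49275288-49283653) that met 2 BRM and 6 SNF5 peaks. PARD6B, a cell polarity protein of epithelia, had a promoter peak of 5551 bp in window 11 with 1 BRM and 1 SNF5 peak. TFAP2C, a transcription factor of ectoderm and epithelia, had one of 3662 bp in window 12, and STX16, a syntaxin of vesicle transport, one of 3239 bp (chr20:58650296-58653534).

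Of all genes of the chromosome, LAMA5 in window 13, the laminin alpha 5 chain of epithelial basement membranes, was named by the most SNF5 peaks. A BRG1 peak of 6578 bp (chr20:62360662-62367239) reached from its introns almost to its start at 62367312 and met 2 BRM and 6 SNF5 peaks. The neighbouring antisense gene LAMA5-AS1 is named for a BRG1 peak of 10727 bp (chr20:62349581-62360307) with 4 BRM and 9 SNF5 peaks. Next to them ADRM1, a ubiquitin receptor of the proteasome, lay under a BRG1 peak of 7018 bp (chr20:62301709-62308726). That peak met 1 BRM peak, 6919 bp wide, and 12 SNF5 peaks, more than any other BRG1 peak of the chromosome. Counting all peaks that name LAMA5, there were 11 of BRG1, 18 of BRM and 18 of SNF5, and for ZMYND8, the next by SNF5, there were 13, 9 and 8.

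On 20p the widest BRG1 peaks of the 6 windows lay at PRNP, the prion protein gene (3896 bp), FERMT1, an integrin activator of keratinocytes (2218 bp), JAG1 (2792 bp), an intron of RIN2 (3905 bp), THBD, the thrombomodulin gene (2672 bp), and ZNF337-AS1 (1963 bp). Only the last 2 met SNF5, with 1 and 2 peaks, while each of the 6 met BRM.

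The last window (60 Mb to the end) stood apart in its balance of the 2 ATPases. It held 278 BRM and 239 BRG1 peaks, a ratio of 1.16, the highest of the 537 autosomal windows with at least 5 genes, where the median on other autosomes was 0.35. Of those windows, 3 others had more BRM than BRG1 peaks: the last window of chromosome 9 (1.12), a window of chromosome 1 with only 10 and 9 peaks, and 1 of chromosome 21 with no BRG1 peak. Of its BRM peaks, 108 met no BRG1 peak (38.8%, 33.1 to 44.9), against 62 of 828 in the rest of the chromosome (7.49%, 5.79 to 9.50). Such peaks were also many in the last window of chromosome 9 (99 of 281). Its 93 SNF5 peaks were the second highest count of the 587 windows. As a description chosen after seeing this window, the last 5 Mb of every long arm were counted: the ratio of BRM to BRG1 peaks was 1.14 on 20q and ranged from 0.107 to 1.03 on the other 21, with a median of 0.543. The share of BRM peaks without BRG1 was 38.1% on 20q and from 0 to 34.5% on the others, with a median of 12.1%.

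The BRM peaks without BRG1 in this window were narrow and mostly away from promoters. Their median width was 372.5 bp against 651 bp for those that met BRG1. There were 28 at promoters, 39 in introns, 27 distal and 14 in exons, and 35 of the 108 lay within 1 kb of a BRG1 peak. SNF5 met 4 of them. They name 59 genes, LAMA5 among them with 8. CHRNA4, a neuronal nicotinic receptor subunit, has 5 BRM peaks and no BRG1 or SNF5 peak. STMN3, a stathmin of neurons, has 4 without BRG1, and GATA5, a transcription factor of heart and gut, has 3. Both are also named by BRG1 peaks, STMN3 by 4 and GATA5 by 3. Housekeeping genes are among the 59 too, such as RPS21 and PSMA7, each with 1 BRM peak without BRG1. The muscle microRNA genes MIR1-1 and MIR133A2 have 3 and 2 BRM peaks, and neither has a BRG1 or SNF5 peak. Their mature microRNAs have different seeds, shown in capitals.
hsa-miR-1-3p: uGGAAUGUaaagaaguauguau
hsa-miR-133a-3p: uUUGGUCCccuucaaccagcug
The 5 widest BRM peaks in no other list on the whole chromosome all lay in this window, among them those at CABLES2 (859 bp), LAMA5 (729 bp), AL121832.2 (715 bp) and UCKL1 (673 bp).

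The promoters of the last window were also GC-rich. Their median GC content over 300 bases was 72.8%, the fifth highest of 365 autosomal windows with at least 10 promoters and 50 BRG1 peaks. The promoter sequences at hand were not complete, and no window of chromosome 8 is among the 365. Its window from 140 to 145 Mb, with a BRM to BRG1 ratio of 0.925, is thus missing from these ranks and values. Across the 353 such windows of other autosomes, which differ in gene content and number of peaks, Spearman's rho between promoter GC content and the BRM to BRG1 ratio was 0.33, and for the SNF5 to BRG1 ratio it was 0.10. In the 19 windows of other autosomes with a GC content of at least 70% the BRM to BRG1 ratio had a median of 0.50 and ranged from 0.28 to 1.12. GC content moves with the ratio, and its part in the result was not tested. The SNF5-rich windows 7 and 8 had promoter GC contents of 60.7% and 64.7%, ranks 242 and 103 of 365.

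**Figure D4:**
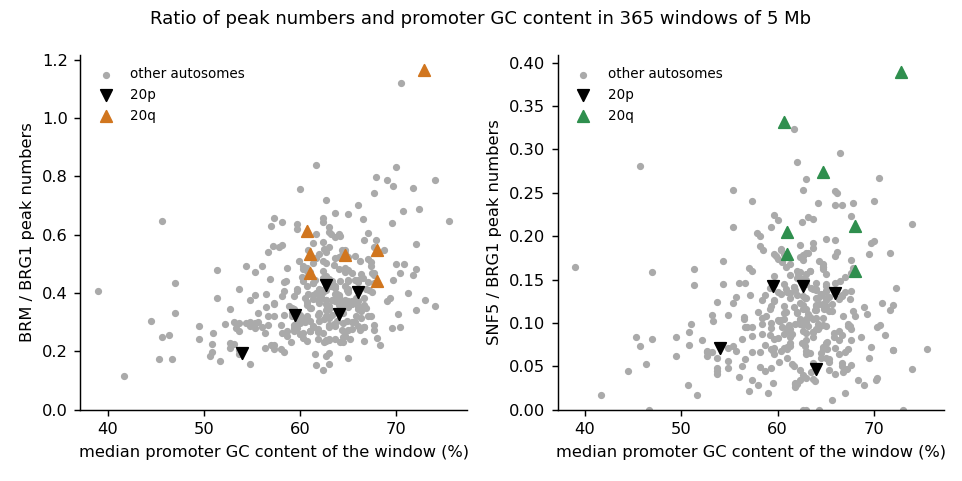
Ratio of BRM (left) or SNF5 (right) to BRG1 peak numbers against the median GC content of promoters in 365 windows of 5 Mb; grey points are windows of other autosomes and triangles those of chromosome 20. Window 13, at 72.8% GC, has the highest point in both panels, and windows of other autosomes with 70% GC or more lie between 0.28 and 1.12 in the left panel.

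RefSeq promoter windows (250 bases before to 50 after a start) were at hand for 512 starts of 384 genes on chromosome 20 and 20644 on other autosomes. BRG1 covered 62.9% of the chromosome's windows (58.5 to 67.1), against 58.4% expected from other autosomes at the same number of CpG. BRM covered 56.3% (51.8 to 60.6; expected 46.8%), and SNF5 covered 27% (23.2 to 31.0; expected 14.3%). On 20q alone BRG1 covered 64.0% (58.6 to 69.2), an interval that includes the expected 59.1%, and BRM covered 60.7% (55.2 to 66.0; expected 47.5%). There SNF5 covered 32.9% (27.9 to 38.3; expected 14.5%), and on 20p 16.3% (11.3 to 22.5; expected 14.1%). In the last window BRG1 covered 60.7% (expected 62.3%) and SNF5 covered 15 of 56 promoters (26.8%, 15.8 to 40.3), an interval that includes the value of 20q as a whole.

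The promoters under BRG1 and BRM, with or without SNF5, were richer in CpG than those under BRG1 alone or no subunit. All 3 subunits covered 137 windows (median 30 CpG), BRG1 and BRM 143 (31 CpG), BRG1 alone 41 (17 CpG), and no subunit 182 (6 CpG). On the other autosomes the medians were 29, 27, 21 and 7 CpG in the same order, so this is not particular to chromosome 20. BRM alone covered 8, at E2F1, PHF20, SLC32A1, TOX2, RBPJL, NELFCD, BHLHE23 and RTEL1, all on 20q, with a median of 35.5 CpG. The letters CCGGAAGT, which ETS factors bind, stood on either strand in 13.9% of the windows under all 3 subunits and in 0.549% of those under none. On the other autosomes the shares were 11.3% and 1.37%, and over all their windows 5.4%. A GC box stood in 24.1% of the chromosome's windows under all 3 and in 11% under none, and TATAAA in 7.30% and 14.3%. On the other autosomes a GC box stood in 27.4% under all 3 and 11.6% under none, and TATAAA in 4.11% and 15.7%. Over all windows of other autosomes the shares were 20.8% for the GC box and 9.53% for TATAAA. These are matches of letters and no measure of factor binding.

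Counting genes instead of peaks, 73.4% of the chromosome's protein-coding genes (394 of 537) were named by a BRG1 peak as nearest TSS, against 65.3% of all autosomal genes. BRM named 66.1% (355), against 51.6%, and SNF5 named 36.7% (197), against 20.6%. On 20p the shares were 63.9%, 52.8% and 20.6%, and on 20q 78.2%, 72.8% and 44.8%. All 3 subunits named 148 of the 357 genes of 20q (41.5%) and 33 of the 180 of 20p (18.3%).

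Gene groups of the chromosome differed widely in these counts. BRG1, BRM and SNF5 named 65.3%, 51.6% and 20.6% of all autosomal genes, and 78.2%, 72.8% and 44.8% of all 20q genes. Of 22 genes of 20q studied in cancer, 21 were named by BRG1 (95.5%), 21 by BRM (95.5%) and 16 by SNF5 (72.7%). The widest BRG1 peak lay at ADRM1, and the next at PTPN1, a tyrosine phosphatase (4138 bp), CYP24A1, the vitamin D hydroxylase (3993 bp, 34113 bp from the TSS), and ZNF217, a transcriptional repressor (3688 bp). ZNF217 was named by 10 BRG1, 5 BRM and 4 SNF5 peaks. NCOA3, a coactivator of nuclear receptors, had 15 BRG1 peaks but 1 of BRM and 1 of SNF5, and AURKA, the mitotic kinase Aurora A, had 1 BRG1 and 1 BRM peak and none of SNF5. Of 16 genes of the cell cycle and DNA replication, 15, 15 and 8 were named (93.75%, 93.75% and 50%). MCM8 was named by none, although a BRG1 peak that names another TSS covers its promoter. TOP1, DNA topoisomerase I, had a promoter peak of 3198 bp and TPX2, a spindle protein, one of 2724 bp. PCNA, the sliding clamp, was named by 1 BRG1, 2 BRM and 1 SNF5 peak.

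Of 19 genes of epithelial adhesion, signalling and transcription, 17 were named by BRG1 (89.5%), 18 by BRM (94.7%) and 14 by SNF5 (73.7%). They include PMEPA1, an inhibitor of TGF-beta signalling induced by androgen, which had the most BRG1 peaks of any gene on the chromosome (19, with 17 of BRM and 5 of SNF5). SRC, the tyrosine kinase, had 16 BRG1, 12 BRM and 4 SNF5 peaks, and TGM2, transglutaminase 2, had 12, 7 and 1. Of 24 housekeeping genes 22, 22 and 16 were named (91.7%, 91.7% and 66.7%). Among them RPS21, a ribosomal protein, had a BRG1 promoter peak of 3209 bp and RPN2, of the oligosaccharyltransferase, one of 2619 bp.

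Of 14 developmental transcription factors 10 were named by BRG1 (71.4%), 8 by BRM (57.1%) and 2 by SNF5 (14.3%), the last being TFAP2C and SOX12. These shares lie near the 65.3%, 51.6% and 20.6% of all autosomal genes. SALL4, a zinc finger factor of early embryos, had 1 BRG1 and 3 BRM peaks and none of SNF5, and INSM1, NKX2-2, NKX2-4 and PAX1 were named by no subunit. Of 15 neuronal and endocrine genes 10 were named by BRG1 (66.7%), 10 by BRM (66.7%) and 0 by SNF5, and AVP, OXT and PDYN had no peak.

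The gene clusters for secreted defence and seminal proteins were named below the shares of all autosomal genes. None of 13 beta-defensin genes was named by any subunit, 1 of 11 cystatin genes was (CST3, the cystatin C gene, which most tissues use), and of 10 BPI fold genes 3 were named by BRG1 and 1 by BRM and SNF5 (BPIFB1). Of 18 genes of the WAP four-disulfide and semenogelin cluster, 7 were named by BRG1 (38.9%), 3 by BRM (16.7%) and 1 by SNF5 (5.56%). Those with peaks include SLPI, an epithelial protease inhibitor, with a BRG1 promoter peak of 2659 bp, 2 BRM peaks and 1 SNF5 peak, and PI3 (elafin), with 2 BRG1 peaks and no other. SEMG1 and SEMG2, the semenogelins of seminal fluid, and EPPIN had none. Of 15 leukocyte genes 10, 7 and 5 were named (66.7%, 46.7% and 33.3%). For BRG1 and BRM this is near the 65.3% and 51.6% of all autosomal genes, and for SNF5 that share is 20.6%. These include ADA, adenosine deaminase, and SAMHD1, which many cells use, and MMP9, while SIGLEC1, SIRPG, SLA2 and CST7 had none.

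**Figure D5:**
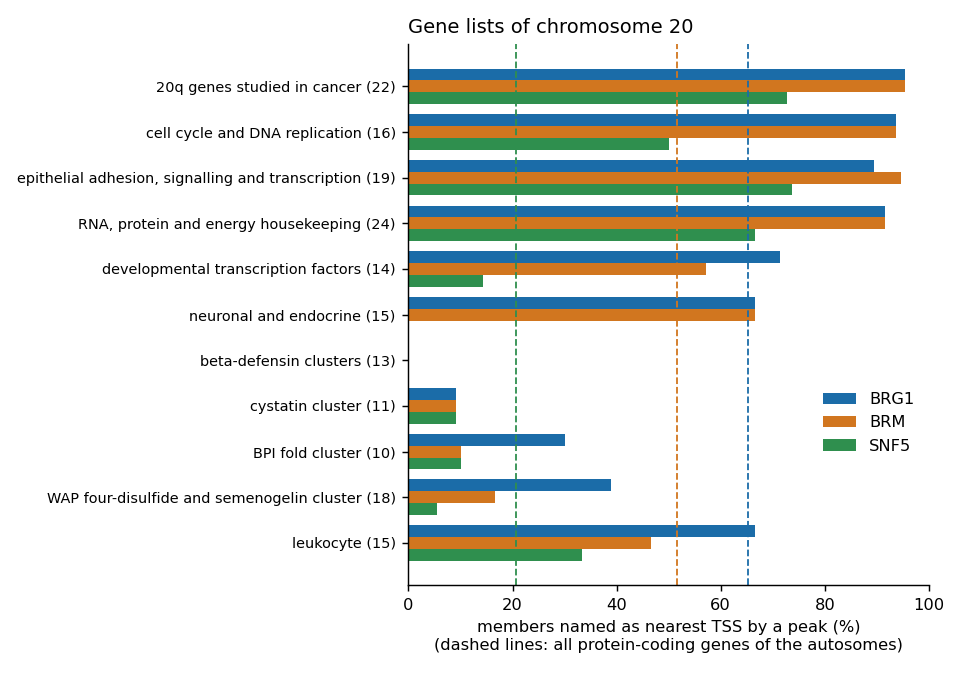
Share of the members of 11 gene lists of chromosome 20 (number of genes in brackets) named as nearest TSS by a BRG1, BRM or SNF5 peak; dashed lines are the shares of all autosomal protein-coding genes (65.3%, 51.6% and 20.6%). The first 4 lists lie above all 3 lines, and the beta-defensin, cystatin, BPI fold and semenogelin lists below them. Genes of 20q as a whole also lie above the lines (78.2%, 72.8% and 44.8%), and some genes, such as SRC, are in more than 1 list.

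Peaks found in 1 list only were narrower. The widest BRG1 peaks that met neither other subunit lay in introns of B4GALT5, a galactosyltransferase (2701 and 2304 bp), and OSER1 (2222 bp), and at distal sites named for AL009050.1 (2334 bp) and AL160413.1 (2240 bp). The widest SNF5 peaks alone included one of 358 bp in LAMA5, one of 283 bp near HMGB1P1 and one of 261 bp near the promoter of CD40, a receptor of the TNF family. Of the chromosome's SNF5 peaks 22 (5.09%) met neither BRG1 nor BRM. Of its BRM peaks 170 (15.4%, 13.3 to 17.6) met no BRG1 peak. They are 9.92% of the 1713 such peaks of all autosomes, and 108 of them are those of the last window.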

How the data were processed

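The authors deposited 1 annotated peak list each for BRG1, BRM and SNF5. Per the file headers, each peak has its start and end, width in bp, place, nearest TSS and distance to it in bp; it carries no reads, p-value, enrichment or other score. The submitters' processing notes name Bowtie2, SAMtools, MACS2, deepTools 2.5.2 and hg38. For the threshold, filter, input, any pooling of replicates and the role of each tool, details were not given in the sources used here. Members, gene lists and rules were chosen with earlier results of these data known, and the promoters printed or named by their state after their values were seen.

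Peaks were assigned to windows, arms (boundary at 28 Mb) and autosomes by their middle. Spans and genes came from RefSeq (GRCh38.p14), whose symbols matched the name given to a peak in 82.6% (BRG1), 87.8% (BRM) and 90.5% (SNF5) of the chromosome's peaks. Promoter sequences came from a RefSeq table that is not complete. The planned rule for named sites used enrichment, and width ranks took its place. Named were the 12 shared sites lowest in the sum of their 3 width ranks, the widest BRG1 peak of each window, the 5 BRG1 peaks meeting the most SNF5 peaks, the 5 widest peaks in 1 list only, the 5 genes that most BRG1 peaks name, and up to 4 members of each gene list with the widest BRG1 peak and 2 without a peak; other list members and genes named for BRM without BRG1 were added after their values were seen. The work used scipy 1.17.1, pandas 2.3.3, numpy 2.4.6 and matplotlib 3.10.9 under Python 3.11.15, and the routines were checked on simulated data. Some members that this rule takes, and their entries in the gene lists, are not reported here. The libraries of inputs and histone marks were not analysed here.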

Additional observations from a re-analysis of the deposited data

How the results depend on the processing

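Of 45 alternative values, 15 stayed within their interval, 30 moved beyond it and none changed direction. Some of the 15 could not move, since equal numbers (6488 peaks) leave the SNF5 list as it is (3.12 times, 69.4% at promoters). The chromosome's density over the other autosomes for BRG1, BRM and SNF5 was 1.41, 1.83 and 2.47 times per protein-coding gene, and 1.63, 2.02 and 2.57 times with peaks of a list within 5 kb merged. Without the last window of 20q, an alternative added after seeing the data, it was 1.68, 1.85 and 2.62 times. With the widest 6488 peaks of each list it was 2.29 times for BRG1 and 2.49 times for BRM, and with the wider 50% of peaks 1.88 times for BRG1. Promoter shares for BRG1, BRM and SNF5 were 44.97%, 63.3% and 81.0% within 3 kb of a TSS and 39.6%, 61.1% and 76.0% among the wider 50%; with equal numbers they were 55.7% for BRG1 and 66.0% for BRM. In each of these settings the share was below that of the other autosomes. BRG1 peaks met BRM in 50.6% and SNF5 in 17.4% within 1 kb, in 45.7% and 15.5% among the wider 50%, and in 67.5% and 52.0% with equal numbers. Without the last window BRM was met by 38.3%, against 35.6% on the other autosomes. Genes named by a promoter peak were 61.3%, 58.1% and 31.8%. Windows shifted by 2.5 Mb, and leaving out the window of the centromere, moved no value beyond its interval. With windows of 10 Mb the last one holds the same 239 BRG1 and 278 BRM peaks, so its ratio could not change. No paired analysis was possible because each list holds 1 set of peaks per subunit and no values per replicate, and for the same reason no replicate could be left out. The number of peaks depends on each library's depth and on the caller's threshold, so numbers of BRG1, BRM and SNF5 peaks are not compared as amounts of protein.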

Other observations

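Several genes of the chromosome were named by many BRG1 peaks and by few or no SNF5 peaks. NFATC2, a transcription factor activated by calcium signals, had 14 BRG1 and 11 BRM peaks and none of SNF5. TOX2, an HMG-box factor, had 14 and 7 and none of SNF5, and B4GALT5 had 14 and 4 and none. AC006076.1 was named by 17 BRG1 and 2 BRM peaks, none of them a promoter peak for BRG1, and by no SNF5 peak. Other genes had similar numbers for the 3 subunits: HM13, a signal peptide peptidase, was named by 6 of each, DIDO1 by 7 BRG1, 6 BRM and 6 SNF5 peaks, and ID1 by 6, 6 and 7. AL354836.1 was named by 5 SNF5 peaks and by no peak of either ATPase. Each peak is named for its own nearest TSS, so this does not say whether those 5 meet a BRG1 or BRM peak. These genes were chosen after their values were seen.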
